A study of Mus musculus with 9 samples.

Results

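The regions described here are the stretches of open chromatin in mouse embryonic stem cells that were called as peaks in NanogKO:Esrrb cells and in neither of the other groups of the study. A counted region belonged to them when it lay on chromosomes 1 to 19 or X, overlapped an interval of the authors' NanogKO:Esrrb peak list by at least 1 bp, and overlapped no interval of the NanogKO:Esrrb:Nanog list or the NanogKO list. Of 157497 counted regions, 13583 (8.62%) met the rule. They are called Esrrb-list-only regions below. The rule used peak calls made on these same libraries, so a higher level in NanogKO:Esrrb than in the other groups is what chose them and is given as a description.

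Accessibility was measured by ATAC-seq, in which a transposase inserts sequencing adapters into open DNA, in 9 libraries. Of these, 3 were labelled NanogKO:Esrrb (code 44J, line N{delta}:cE:iN), 3 NanogKO:Esrrb:Nanog (code 44JN, the same line name) and 3 NanogKO (code 44C6, line N{delta}). All 3 groups carry the Nanog knockout by their labels, and all grew in serum with 1000 U/ml of the self-renewal cytokine LIF and were sorted as PECAM+ PDGFRA- cells. How Esrrb and Nanog were supplied, and whether a line is 1 clone, is not given in the labels used here, and NanogKO bears another line name than both other groups. The labels do not name replicates as separate cultures, so p-values here reflect library-to-library spread only, possibly technical, and the design text counts 12 samples, of which those beyond the 9 were not analysed here. In bulk libraries, fewer cells with an open region and less opening per cell cannot be told apart.

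ESRRB is an orphan nuclear receptor that binds DNA as a single molecule at an extended receptor element. In mouse embryonic stem cells it belongs to the naive pluripotency network with NANOG, KLF4 and TFCP2L1, and NANOG activates its gene. ESRRB can sustain self-renewal in cells that lack NANOG. ATAC-seq peaks mark promoters and distal elements whose DNA is accessible, often because transcription factors displaced nucleosomes.

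The peak lists themselves limit what a missing peak says. Every interval of the NanogKO:Esrrb list carried the peak name of 1 library, NanogKO:Esrrb replicate 3. Every interval of the NanogKO:Esrrb:Nanog list also carried the name of that same NanogKO:Esrrb library, and 102788 of its 114798 peaks stood in the NanogKO:Esrrb list as well. The NanogKO list carried the name of NanogKO replicate 3 throughout. Absence from the NanogKO:Esrrb:Nanog list is therefore absence from a set of intervals named after a NanogKO:Esrrb library, and 539 Esrrb-list-only regions (3.97%) came from a peak that stood in the NanogKO:Esrrb:Nanog list at another place.

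Sequence was at hand for the promoter windows of RefSeq genes (GRCm38.p6, the assembly of mm10), which run from 250 bases before to 50 after each start. The Esrrb-list-only regions lay on few of them: 176 (1.3%) touched a window, against 8.84% of all counted regions. The 9-letter ESRRB element TCAAGGTCA was in 0 of the 184 windows touched (95% Wilson interval up to 2.05%), against 0.21% of the 17156 windows under any counted region. Its core AAGGTCA, which lies within that element, was in 11 of the 184 (5.98%, interval 3.37 to 10.4%), against 3.3% of windows under any counted region and 4.71% of all 32619 windows. It was as common under regions of other lists: 5.78% for the NanogKO list only and 6.52% for the NanogKO:Esrrb:Nanog list only. Under regions of both lists with Esrrb but not NanogKO it was in 7.95%. Both strands were searched. In 7 of the 176 regions the core lay in the stretch that the region and the window share. The 5 of highest abundance are shown, each as that shared stretch on the gene's strand with the core (or its complement TGACCTT, where it lies on the other strand) in capitals.
Aktip, chr8:91135484-91135744, minus strand: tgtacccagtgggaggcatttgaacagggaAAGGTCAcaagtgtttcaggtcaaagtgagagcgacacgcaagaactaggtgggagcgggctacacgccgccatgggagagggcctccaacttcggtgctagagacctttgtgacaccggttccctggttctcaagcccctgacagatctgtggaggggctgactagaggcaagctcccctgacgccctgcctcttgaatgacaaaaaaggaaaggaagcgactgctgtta
Platr7, chr10:84553449-84553588, minus strand: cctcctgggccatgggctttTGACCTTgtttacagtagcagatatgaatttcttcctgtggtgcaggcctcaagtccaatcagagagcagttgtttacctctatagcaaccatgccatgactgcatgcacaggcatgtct
Gm36617, chr15:59246029-59246256, plus strand: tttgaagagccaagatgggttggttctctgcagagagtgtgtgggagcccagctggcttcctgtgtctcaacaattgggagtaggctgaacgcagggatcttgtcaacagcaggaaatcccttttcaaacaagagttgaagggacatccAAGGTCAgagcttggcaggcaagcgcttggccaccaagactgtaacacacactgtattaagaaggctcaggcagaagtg
Krt20, chr11:99438104-99438215, minus strand: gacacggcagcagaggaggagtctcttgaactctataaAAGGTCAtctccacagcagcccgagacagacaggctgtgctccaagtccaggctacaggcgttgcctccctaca
Gm20619, chr6:6248409-6248697, plus strand: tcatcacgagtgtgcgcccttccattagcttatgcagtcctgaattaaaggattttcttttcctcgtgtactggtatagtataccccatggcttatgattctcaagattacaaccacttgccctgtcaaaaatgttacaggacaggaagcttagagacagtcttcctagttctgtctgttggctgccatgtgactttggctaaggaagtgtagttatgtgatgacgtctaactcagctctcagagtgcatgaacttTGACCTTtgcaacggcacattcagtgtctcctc

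Levels are given as CPM, counts divided by the library total and scaled up, with TMM factors. The region at Platr7, a long noncoding RNA named for pluripotency-associated transcripts, had 4.59, 5.59 and 4.26 CPM in NanogKO:Esrrb, 2.03, 3.61 and 3.13 CPM in NanogKO:Esrrb:Nanog, and 2.10, 2.09 and 1.99 CPM in NanogKO. The NanogKO:Esrrb libraries lay above all 6 others, while NanogKO:Esrrb:Nanog overlapped NanogKO, and the log2 fold change between those last groups was 0.50 ± 0.20 (SE, edgeR's quasi-likelihood test, adjusted p = 0.045). That call was lost with library totals alone, with the 2 groups fitted alone, and without NanogKO:Esrrb replicate 1, NanogKO:Esrrb:Nanog replicate 2 or 3, or any of the 3 NanogKO replicates (adjusted p over alternatives 0.0057 to 0.22). The region at Aktip, whose protein binds AKT and Hook proteins, had 5.76, 6.06 and 6.05 CPM in NanogKO:Esrrb, 4.42, 5.22 and 5.14 CPM in NanogKO:Esrrb:Nanog, and 4.83, 4.35 and 4.14 CPM in NanogKO. At Krt20, a keratin of gut epithelium, it had 1.45, 1.54 and 1.43 CPM in NanogKO:Esrrb, 0.809, 0.998 and 1.18 CPM in NanogKO:Esrrb:Nanog, and 1.05, 1.30 and 1.14 CPM in NanogKO. In both, the NanogKO:Esrrb libraries lay above the other 6, and neither differed between NanogKO:Esrrb:Nanog and NanogKO by the test (adjusted p = 0.43 and 0.47). Across the 176 regions on windows, 22 were higher and 19 lower in NanogKO:Esrrb:Nanog than in NanogKO, where 24.9% and 24.4% of all tested regions were called, and their median log2 fold change was -0.056. The windows touched were also poorer in G and C than those under any counted region, with a median of 52% against 60.7%, and 23.4% of them held 10 or more CG dinucleotides, against 77.4%. Windows under regions of the NanogKO list only were alike (52% and 17.3%), as were those of both lists with Esrrb but not NanogKO (53.3% and 24.8%). For the NanogKO:Esrrb:Nanog list only the values were 59.7% and 54.3%.

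The Esrrb-list-only regions were short and lay mostly away from gene ends, traits shared with regions peaked in another single list. The median length of the Esrrb-list-only regions was 201 bp (quartiles 153 and 268, range 1 to 1228), against 345 bp for all counted regions, and 586 (4.31%) were under 50 bp. It was 182 bp for the NanogKO list only and 105 bp for the NanogKO:Esrrb:Nanog list only. For regions of both lists with Esrrb but not NanogKO it was 257 bp. The annotation used for places was that of protein-coding genes. Within 1 kb of a gene end lay 885 of the Esrrb-list-only regions (6.52%), against 14.78% of all regions, while 6442 (47.43%) lay inside a gene and 6256 (46.06%) outside genes, against 43.49% and 41.72%. The classes just named had 5.8%, 7.5% and 6.2% within 1 kb of a gene end, in the same order. The authors' own peak score had a median of 70 in the Esrrb-list-only regions (13 to 3223), against 271 over all regions that overlap the NanogKO:Esrrb list. The nearest other region was one peaked in all 3 lists for 49.0% of them, against 55.3% of all regions, and another Esrrb-list-only region for 13.5%, against 8.6%. Their share of a chromosome's regions ran from 7.21% on chromosomes 7 and 19 to 9.9% on chromosome 13. A gene lay within 50 kb of 11055 (81.39%), and these involved 6616 genes.

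The regions with the highest scores were not large new peaks. The 6 highest scores, 2301 to 3223, belonged to pieces of 22 to 255 bp within 1 kb of an end of Desi1, Cpsf4, Nop58, Chga, Ncapg2 and Pgrmc2, each 124 to 233 bp from a region peaked in all 3 lists. At Desi1, a SUMO protease gene (chr15:82015938-82015976), the piece had 1.25, 1.11 and 1.25 CPM in NanogKO:Esrrb, 1.87, 1.29 and 0.899 CPM in NanogKO:Esrrb:Nanog, and 1.10, 1.08 and 1.91 CPM in NanogKO. The groups overlapped there. At Nop58, a nucleolar protein that guides RNA methylation (chr1:59685601-59685855), it had 3.26, 5.06 and 3.06 CPM in NanogKO:Esrrb, 3.32, 2.23 and 3.10 CPM in NanogKO:Esrrb:Nanog, and 2.00, 1.87 and 2.11 CPM in NanogKO. All 6 libraries with Esrrb lay above those of NanogKO. The rule set no score threshold. The lowest score was 13, also the lowest over all regions that overlap the NanogKO:Esrrb list, and pieces by Prr12, Psrc1 and in Pcbd2 had it. The region by Prr12 (chr7:45052696-45052795) had 1.93, 1.57 and 1.39 CPM in NanogKO:Esrrb, 2.41, 2.64 and 1.75 CPM in NanogKO:Esrrb:Nanog, and 1.61, 2.04 and 1.99 CPM in NanogKO. That by Psrc1 (chr3:108384667-108384718) had 1.75, 2.65 and 1.65 CPM in NanogKO:Esrrb, 1.39, 1.41 and 1.5 CPM in NanogKO:Esrrb:Nanog, and 1.02, 0.845 and 0.588 CPM in NanogKO. In Pcbd2 (chr13:55738430-55738559) the levels were 0.735, 0.62 and 0.574 CPM in NanogKO:Esrrb, 0.56, 0.411 and 0.657 CPM in NanogKO:Esrrb:Nanog, and 0.707, 0.661 and 0.71 CPM in NanogKO. The 3 groups were ordered without overlap by Psrc1, while NanogKO:Esrrb overlapped both other groups by Prr12 and in Pcbd2. Just outside the rule, a region near Olfr1425 (chr19:12067458-12067706) missed it by 1 bp of overlap with another list and had 1.89, 2.18 and 1.32 CPM in NanogKO:Esrrb, 1.20, 0.763 and 2.04 CPM in NanogKO:Esrrb:Nanog, and 0.366, 0.423 and 0.385 CPM in NanogKO. Regions near Tle4 and at Kyat1 also missed it by 1 bp.

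Total counts per library were 49870948 to 58096403 in NanogKO:Esrrb, 35545030 to 58520948 in NanogKO:Esrrb:Nanog, and 41334847 to 52871542 in NanogKO. The median count of an Esrrb-list-only region was 53, 64 and 61 in NanogKO:Esrrb, 31, 24 and 51 in NanogKO:Esrrb:Nanog, and 28, 40 and 38 in NanogKO, so single regions rest on few counts. As a check of the cell type, all 5 stem cell marker genes (Pou5f1, Sox2, Zfp42, Utf1 and Dppa5a) had a region within 1 kb of an end, the highest at 18.7 to 49.5 CPM in NanogKO:Esrrb, 16.9 to 53.4 CPM in NanogKO:Esrrb:Nanog and 14.6 to 42.5 CPM in NanogKO. Genes of other lineages had accessible ends too: 4 of 5 primitive endoderm genes (Gata4 had none), 5 of 5 fibroblast genes and 3 of 3 neural genes, with the fibroblast genes lowest, at 3.23 to 12.9, 2.67 to 13.4 and 4.02 to 13.3 CPM in the same order of groups. Open ends at these genes do not tell cell types apart, and their part in the results was not tested.

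The Esrrb-list-only regions were lightly accessible in every group. The median region had 1.053, 1.072 and 1.061 CPM in NanogKO:Esrrb, 0.643, 0.704 and 0.882 CPM in NanogKO:Esrrb:Nanog, and 0.683, 0.735 and 0.770 CPM in NanogKO. The 3 NanogKO:Esrrb medians lay close together above the other 6, and NanogKO:Esrrb:Nanog replicate 3 stood above the rest of its group. The medians of all counted regions were higher, at 2.74 to 2.96 CPM in the 9 libraries. As a share of all counts, the Esrrb-list-only regions took 1.74 ± 0.054% in NanogKO:Esrrb, 1.18 ± 0.218% in NanogKO:Esrrb:Nanog, and 1.18 ± 0.0944% in NanogKO (SD, n = 3 each). The single values were 1.686, 1.794 and 1.741% in NanogKO:Esrrb, 0.9977, 1.11 and 1.418% in NanogKO:Esrrb:Nanog, and 1.08, 1.205 and 1.265% in NanogKO. NanogKO:Esrrb:Nanog replicate 3 thus lay above all 3 NanogKO libraries and replicate 1 below them. A count of 0 was rare, found in 0 to 1 of the 13583 regions in a NanogKO:Esrrb library, 1 to 70 in a NanogKO:Esrrb:Nanog library and 1 to 10 in a NanogKO library.

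**Figure D1:**
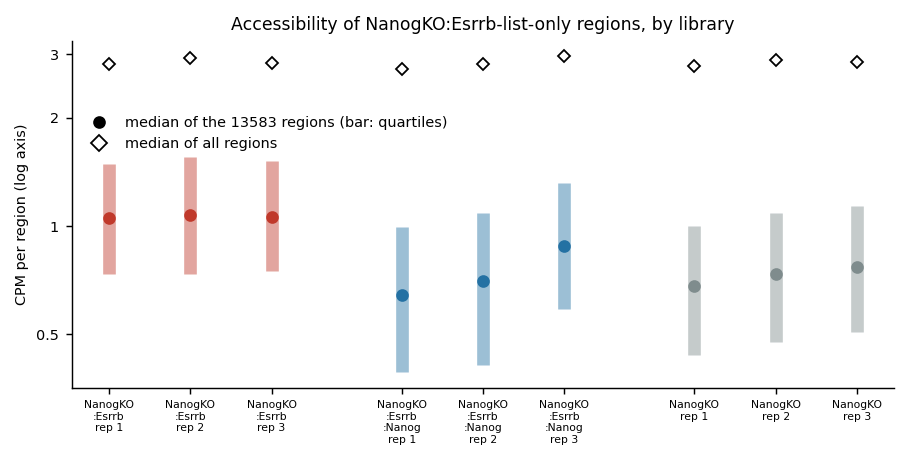
CPM per region on a log axis for the 9 libraries, with dots for the median and bars for the quartiles of the 13583 Esrrb-list-only regions and open diamonds for the median of all counted regions. The NanogKO:Esrrb medians sit at 1.053 to 1.072, those of NanogKO:Esrrb:Nanog spread from 0.643 to 0.882, and those of NanogKO run from 0.683 to 0.770.

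Libraries of 1 group differed more in these regions than elsewhere in the groups without the peak. The median coefficient of variation among replicates was 14.2% in NanogKO:Esrrb, 28.6% in NanogKO:Esrrb:Nanog and 22.9% in NanogKO. Over all counted regions it was 12.1%, 16.3% and 12.4% in the same order. The regions hold few counts, and how much of this spread is counting error was not tested.

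Set against NanogKO, the Esrrb-list-only regions were higher in NanogKO:Esrrb by a median log2 fold change of 0.523, against -0.011 over all tested regions. Of the 13545 that passed the filter on low counts, 4653 (34.4%) were higher at an adjusted p under 0.05 and 39 (0.288%) lower, where 20% and 17.0% of all tested regions were called. More than 2-fold, 2538 (18.7%) were higher and 3 (0.0221%) lower, against 8.37% and 6.01% of all. In 7023 (51.8%), all 3 NanogKO:Esrrb libraries lay above all 3 of NanogKO, and in 154 (1.14%) below, against 26.2% and 25.7% of all tested regions. The rule used this contrast, so nothing is read from these shares. As a description of size, the quartiles of the log2 fold change were 0.216 and 0.884, so most Esrrb-list-only regions differed by less than 2-fold in counts.

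Against NanogKO:Esrrb:Nanog, the median log2 fold change of NanogKO:Esrrb was 0.509, with 0.010 over all tested regions. Here 3491 (25.8%) were higher and 23 (0.17%) lower, against 12.0% and 12.6% of all. More than 2-fold, 1843 (13.6%) were higher and 5 (0.0369%) lower, against 3.63% and 1.89%. The libraries stood wholly above in 6126 (45.2%) and wholly below in 104 (0.768%), against 19.4% and 18.3%. These values lean on NanogKO:Esrrb:Nanog replicate 3: without it, 5076 regions were higher and the median was 0.667, and without replicate 1, 1915 were higher and the median was 0.417. Of all tested regions, 16.1% and 7.5% were higher in those fits, so the share of all regions moved too. Without replicate 2 of that group 2238 were higher, against 7.8% of all tested regions. Without NanogKO:Esrrb replicate 1 or 3, 2212 or 2050 were higher, against 8.3% or 7.7% of all.

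**Figure D2:**
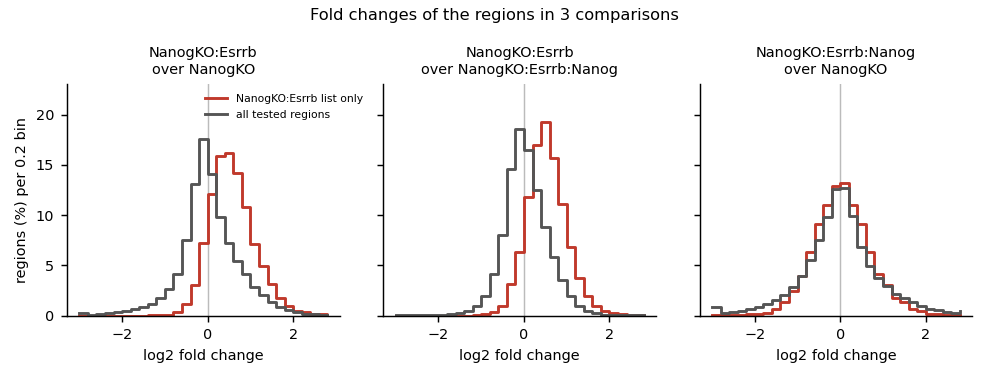
Percent of regions in bins of 0.2 log2 fold change for the Esrrb-list-only regions (red) and all tested regions (grey) in the 3 comparisons, with values beyond 3 placed in the end bins. In both comparisons of NanogKO:Esrrb, which the rule used, the red curve is shifted to medians of 0.523 and 0.509, while for NanogKO:Esrrb:Nanog over NanogKO its median is 0.022.

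Between NanogKO:Esrrb:Nanog and NanogKO the rule named no direction, since it asked that both lists lack a peak. The lists differ in the library their intervals are named after, so the absence of a peak is not the same measure in both groups, and the rule also narrowed how far they could differ. With Nanog and Esrrb, 1956 of the 13545 tested regions were higher than in NanogKO (14.4%, against 24.9% of all tested regions) and 1406 lower (10.4%, against 24.4%). The median log2 fold change was 0.022, against -0.008 over all. More than 2-fold, 1048 (7.74%) were higher and 665 (4.91%) lower, against 11.3% and 11.0%. Libraries stood wholly apart in 2087 regions above (15.4%, against 26.7%) and 1651 below (12.2%, against 27.8%).

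Whether rises or falls prevailed between those groups was not stable. Without NanogKO:Esrrb:Nanog replicate 3, 1391 regions were higher and 2099 lower, against 25.6% and 26.0% of all tested regions, and the median was -0.142. Without replicate 1 of that group, 2133 were higher and 854 lower, against 23.1% and 21.3% of all, and the median was 0.119. Scaled by library totals alone, 1515 were higher and 1715 lower, against 21.0% and 28.8% of all. Their median was -0.071, where that scaling moved the median of all regions to -0.104. The Esrrb-list-only regions therefore had rises and falls in both directions with no net direction that held.

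Regions of higher abundance leaned upward in NanogKO:Esrrb:Nanog. The median log2 fold change over NanogKO was -0.14 in the 2055 regions with a mean under 0.5 CPM, -0.01 in 6269 at 0.5 to 1 CPM, 0.10 in 4407 at 1 to 2 CPM, 0.18 in 739 at 2 to 4 CPM and 0.39 in 74 at 4 to 8 CPM. The order runs up with abundance in all counted regions as well, from -0.39 to 0.04 over the same bands. In the band at 4 to 8 CPM, 36 of the 74 (48.65%) were called higher and 10 (13.51%) lower, against 29.74% and 22.63% of all regions in that band. Mean abundance includes the NanogKO:Esrrb:Nanog libraries themselves, so a band is not independent of the fold change.

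**Figure D3:**
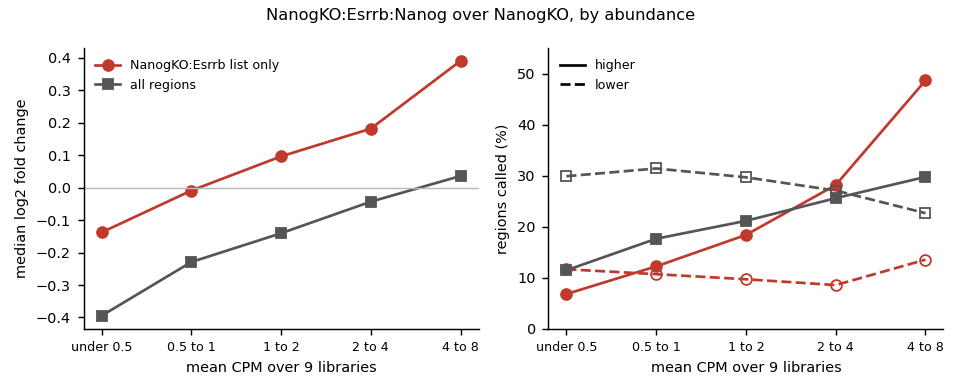
NanogKO:Esrrb:Nanog over NanogKO by mean CPM over the 9 libraries, as the median log2 fold change (left) and the percent of regions called higher (solid) or lower (dashed, right), for the Esrrb-list-only regions (red) and all regions (grey). The red median runs from -0.14 under 0.5 CPM to 0.39 at 4 to 8 CPM.

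The neighbourhood of a region went with its level in the other groups. Where the nearest region lay within 1 kb and was peaked in both lists with Esrrb but not in NanogKO, 182 of 599 regions (30.38%) were higher in NanogKO:Esrrb:Nanog than in NanogKO and 17 (2.84%) lower, and the median log2 fold change was 0.36. Of all regions beside such a neighbour, 47.49% were higher and 9.91% lower. Where it was peaked in NanogKO alone, 28 of 336 (8.33%) were higher and 71 (21.13%) lower, with a median of -0.27, against 15.07% and 41.02% of all regions so placed. With no region within 1 kb, 1199 of 9221 (13%) were higher and 998 (10.82%) lower, with a median of -0.004, against 22.97% and 26.73% of all. Over all counted regions the medians beside the same neighbours were 0.42, -0.32 and -0.05, so the medians had the same sign beside each kind of neighbour in all regions too. By place, the medians for Esrrb-list-only regions were 0.01 within 1 kb of a gene end, 0.05 inside genes and -0.01 outside genes.

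The largest rises of NanogKO:Esrrb:Nanog over NanogKO, among called regions of at least the median abundance whose libraries did not overlap, lay outside genes in 4 of 5 cases and inside a vomeronasal receptor gene in the other. Near Usp46, a ubiquitin protease that removes ubiquitin from glutamate receptors (chr5:73954576-73955284, 43442 bp from the gene), levels were 9.36, 9.55 and 11.2 CPM in NanogKO:Esrrb, 4.50, 6.75 and 13.4 CPM in NanogKO:Esrrb:Nanog, and 1.02, 1.30 and 1.18 CPM in NanogKO. All 6 libraries with Esrrb lay far above NanogKO, and NanogKO:Esrrb:Nanog was higher by 2.82 ± 0.27 (log2, SE; adjusted p = 1.8e-09). A region 136858 bp from LOC108167368 (chr12:20807549-20807828) had 3.93, 3.75 and 4.07 CPM in NanogKO:Esrrb, 3.23, 2.32 and 5.69 CPM in NanogKO:Esrrb:Nanog, and 0.317, 0.569 and 0.689 CPM in NanogKO (2.83 ± 0.29, 6.6e-09). In both regions NanogKO:Esrrb:Nanog replicate 3 lay above all NanogKO:Esrrb libraries and the other 2 replicates below them.

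In Vmn2r1, a vomeronasal receptor gene (chr3:64205014-64205494), levels were 2.33, 3.30 and 2.21 CPM in NanogKO:Esrrb, 1.47, 1.23 and 3.25 CPM in NanogKO:Esrrb:Nanog, and 0.293, 0.294 and 0.304 CPM in NanogKO. NanogKO:Esrrb:Nanog was higher there by 2.76 ± 0.34 (adjusted p = 1.8e-07). Near Olfr1425, an odorant receptor gene (chr19:12067915-12068089), they were 1.51, 1.98 and 1.15 CPM in NanogKO:Esrrb, 1.68, 1.76 and 2.92 CPM in NanogKO:Esrrb:Nanog, and 0.244, 0.423 and 0.284 CPM in NanogKO (2.72 ± 0.31, 5.2e-08). Near Kat6b, a histone acetyltransferase (chr14:21487576-21487727), levels were 0.914, 1.51 and 0.696 CPM in NanogKO:Esrrb, 1.72, 1.82 and 1.94 CPM in NanogKO:Esrrb:Nanog, which stood highest, and 0.366, 0.312 and 0.203 CPM in NanogKO (2.64 ± 0.32, 1.3e-07).

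The 5 largest falls under the same limits of call, abundance and overlap differed in where NanogKO:Esrrb stood. NanogKO overlapped NanogKO:Esrrb near Lgi1 and Zfp870, lay above it in all libraries near Ttc9 and in Ptprn2, and lay below it near Adamts9. Near Lgi1, a secreted synaptic protein (chr19:38327973-38328128), levels were 2.19, 1.88 and 2.14 CPM in NanogKO:Esrrb, 0.643, 0.0587 and 0.553 CPM in NanogKO:Esrrb:Nanog, and 2.19, 2.48 and 2.09 CPM in NanogKO. Only NanogKO:Esrrb:Nanog stood apart, lower than NanogKO by a log2 fold change of -2.32 ± 0.33 (adjusted p = 1.3e-06). In Ptprn2, a phosphatase-like protein of secretory granules (chr12:117257777-117257952), they were 1.45, 1.52 and 1.81 CPM in NanogKO:Esrrb, 0.809, 0.733 and 0.640 CPM in NanogKO:Esrrb:Nanog, and 2.59, 2.74 and 1.91 CPM in NanogKO (-1.73 ± 0.24, 1.1e-06). There NanogKO stood above NanogKO:Esrrb in all libraries although no NanogKO peak overlapped the region. A region peaked in the NanogKO list alone lay 43 bp away.

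Near Ttc9, a tetratricopeptide protein (chr12:81678595-81678723), levels were 1.69, 1.66 and 1.6 CPM in NanogKO:Esrrb, 0.394, 0.968 and 0.432 CPM in NanogKO:Esrrb:Nanog, and 1.83, 1.93 and 2.53 CPM in NanogKO (-1.88 ± 0.28, 4e-06). Near Zfp870, a zinc finger gene (chr17:32856690-32857162), they were 1.43, 1.19 and 1.27 CPM in NanogKO:Esrrb, 0.228, 0.0293 and 0.640 CPM in NanogKO:Esrrb:Nanog, and 1.41, 1.08 and 1.20 CPM in NanogKO (-1.88 ± 0.40, 0.0003). At 150415 bp from Adamts9, a secreted metalloprotease gene (chr6:93094865-93095126), they were 2.19, 1.42 and 1.34 CPM in NanogKO:Esrrb, 0.311, 0.117 and 0.242 CPM in NanogKO:Esrrb:Nanog, and 0.854, 1.14 and 0.507 CPM in NanogKO (-1.84 ± 0.38, 0.00023). The groups were ordered there without overlap. Each of these 5 rises and 5 falls kept its direction and its call under all 15 alternative fits.

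As a description of what the rule chose, among regions of at least the median abundance the largest differences of NanogKO:Esrrb from NanogKO were log2 fold changes of 3.41 near Mgll, which breaks down monoacylglycerols and the cannabinoid 2-arachidonoylglycerol (chr6:88693389-88693668), 3.13 in Vmn2r1, 3.09 near Usp46, 3.02 in Brdt, a testis bromodomain protein (chr5:107380276-107380514), and 2.91 at another region near Usp46 (chr5:73947430-73947780). The region near Mgll had 1.71, 2.14 and 1.46 CPM in NanogKO:Esrrb, 0.850, 0.763 and 1.28 CPM in NanogKO:Esrrb:Nanog, and 0.122, 0.239 and 0.122 CPM in NanogKO. Within the same abundance limit, the largest differences of NanogKO:Esrrb from NanogKO:Esrrb:Nanog were 2.81 near Adamts9, 2.2 near Lgi1, 2.02 near the sodium-proton exchanger gene Slc9a7 (chrX:20306103-20306458), 2.00 near Vmn1r219 (chr13:23170117-23170561) and 1.97 near Gata1, an erythroid factor (chrX:7988778-7989125). Near Vmn1r219 both other groups were low, with 2.52, 3.06 and 1.88 CPM in NanogKO:Esrrb, 0.332, 0.352 and 1.09 CPM in NanogKO:Esrrb:Nanog, and 0.634, 0.496 and 0.568 CPM in NanogKO.

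The 6 regions of highest mean CPM lay at or near Spry4, Ncapd2, Pcdh1, Bcat1, Usp46 and Rcc1. At Spry4, a Sprouty inhibitor of FGF and ERK signalling (chr18:38585284-38585816, 431 bp from the gene), levels were 9.26, 8.69 and 8.82 CPM in NanogKO:Esrrb, 7.92, 5.34 and 9.13 CPM in NanogKO:Esrrb:Nanog, and 4.15, 3.42 and 4.48 CPM in NanogKO. Both groups with Esrrb lay above NanogKO, and NanogKO:Esrrb:Nanog was higher by 0.91 ± 0.17 (adjusted p = 6.5e-05). In Ncapd2, a condensin subunit gene next to Gapdh (chr6:125171632-125172164), they were 9.42, 9.55 and 9.41 CPM in NanogKO:Esrrb, 6.82, 7.04 and 6.62 CPM in NanogKO:Esrrb:Nanog, and 3.41, 3.42 and 3.55 CPM in NanogKO (0.98 ± 0.14, 1.7e-06). The 3 groups were separate, with NanogKO:Esrrb:Nanog between the others.

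Near Pcdh1, a protocadherin (chr18:38148161-38148566, 63 bp from a region peaked in the NanogKO list alone), levels were 7.59, 8.73 and 6.78 CPM in NanogKO:Esrrb, 8.44, 8.66 and 10.4 CPM in NanogKO:Esrrb:Nanog, and 5.12, 5.64 and 5.35 CPM in NanogKO (0.77 ± 0.14, 6.5e-05). Near Bcat1, which transaminates branched-chain amino acids (chr6:145079560-145079977), they were 10.7, 11.7 and 7.59 CPM in NanogKO:Esrrb, 6.57, 3.64 and 9.11 CPM in NanogKO:Esrrb:Nanog, and 5.78, 4.81 and 3.83 CPM in NanogKO (0.45 ± 0.22, 0.095). At another site near Usp46 (chr5:74094838-74095286) and near Rcc1, the guanine exchange factor of RAN (chr4:132349711-132349943), the groups were close. Near Usp46 levels were 9.12, 10.1 and 9.12 CPM in NanogKO:Esrrb, 5.20, 7.98 and 8.21 CPM in NanogKO:Esrrb:Nanog, and 9.49, 8.73 and 5.58 CPM in NanogKO. Near Rcc1 they were 6.78, 6.75 and 6.63 CPM in NanogKO:Esrrb, 6.03, 6.75 and 9.61 CPM in NanogKO:Esrrb:Nanog, and 5.32, 6.48 and 6.04 CPM in NanogKO. The test between the last groups gave -0.15 ± 0.18 (adjusted p = 0.49) near Usp46 and 0.33 ± 0.16 (0.086) near Rcc1. NanogKO:Esrrb:Nanog overlapped NanogKO at both. The NanogKO:Esrrb libraries lay above those of NanogKO:Esrrb:Nanog near Usp46 and above those of NanogKO near Rcc1.

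**Figure D4:**
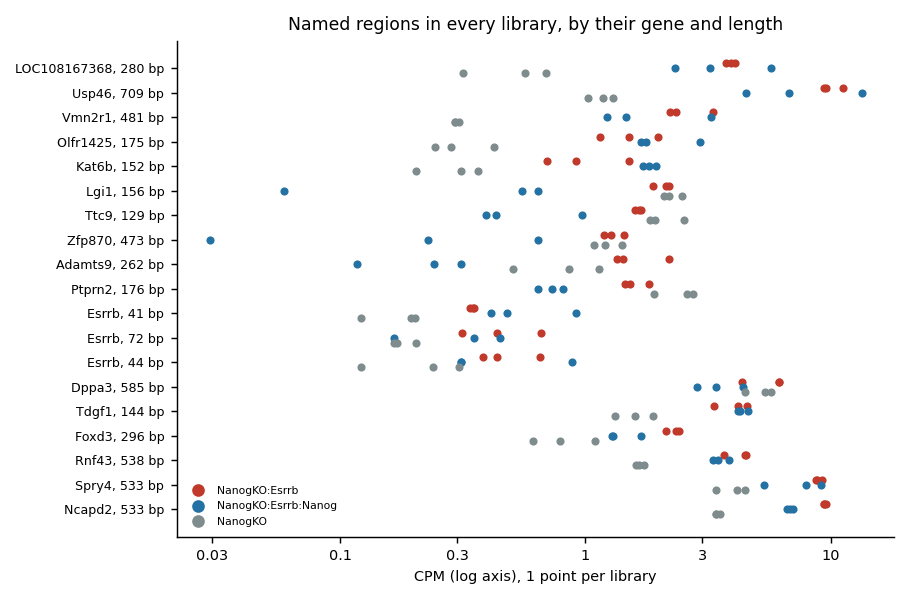
CPM on a log axis, 1 point per library, for named Esrrb-list-only regions labelled by gene and length in bp, with NanogKO:Esrrb in red, NanogKO:Esrrb:Nanog in blue and NanogKO in grey. From the top, the 5 largest rises of NanogKO:Esrrb:Nanog over NanogKO have grey points apart on the left, and in the 5 largest falls the blue points lie on the left.

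Genes of the pluripotency and signalling networks were looked at through 12 lists, each with the regions in or within 50 kb of its genes. Together 221 Esrrb-list-only regions lay at 103 of the 142 listed genes. The shares called in the contrasts of the rule are descriptions, and only NanogKO:Esrrb:Nanog over NanogKO is read, against 14.4% higher, 10.4% lower and a median of 0.022 among all Esrrb-list-only regions. Of all tested regions 24.9% were higher and 24.4% lower, and the calls among all regions of a list are given beside its own.

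At 16 naive pluripotency genes, the factors that keep stem cells in the ground state, 34 of 370 regions were Esrrb-list-only (9.19%), spread over 14 of the genes. Among genes picked here by their number of regions, after values were seen, Jam2 and Esrrb had 5 each and Tfcp2l1, a partner of ESRRB and KLF4, had 4. Of all 370 regions, 203 were higher in NanogKO:Esrrb:Nanog than in NanogKO and 34 lower. Among the 34 Esrrb-list-only regions 10 were higher and 4 lower, and the median log2 fold change was 0.51, close to that of all 370 regions (0.506). The most accessible was in Dppa3, a maternal factor that protects DNA methylation (chr6:122628418-122629002), with 4.35, 6.13 and 6.14 CPM in NanogKO:Esrrb, 2.84, 3.40 and 4.41 CPM in NanogKO:Esrrb:Nanog, and 5.41, 5.71 and 4.48 CPM in NanogKO. NanogKO:Esrrb overlapped NanogKO there, while NanogKO:Esrrb:Nanog was lower than NanogKO by -0.54 ± 0.18 (adjusted p = 0.015), a call lost without NanogKO:Esrrb:Nanog replicate 1 or NanogKO replicate 2 (range over alternatives 0.0018 to 0.098).

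Inside the Esrrb gene lay 3 short Esrrb-list-only regions, at chr12:86403248-86403288, chr12:86456001-86456072 and chr12:86456243-86456286, and no Esrrb-list-only region lay within 10 kb of Nanog. The first, 178 bp from a region peaked in all lists, had 0.338, 0.352 and 0.348 CPM in NanogKO:Esrrb, 0.477, 0.411 and 0.916 CPM in NanogKO:Esrrb:Nanog, and 0.195, 0.202 and 0.122 CPM in NanogKO. It was highest in NanogKO:Esrrb:Nanog, by 1.83 ± 0.40 over NanogKO (adjusted p = 0.00038). The second had 0.656, 0.435 and 0.313 CPM in NanogKO:Esrrb, 0.166, 0.352 and 0.45 CPM in NanogKO:Esrrb:Nanog, and 0.171, 0.165 and 0.203 CPM in NanogKO (0.85 ± 0.45, 0.12). The third had 0.437, 0.653 and 0.383 CPM in NanogKO:Esrrb, 0.311, 0.880 and 0.311 CPM in NanogKO:Esrrb:Nanog, and 0.122, 0.239 and 0.304 CPM in NanogKO (1.05 ± 0.44, 0.051, range over alternatives 0.016 to 0.42). Outside the gene, 10786 bp away (chr12:86350105-86350331), another Esrrb-list-only region went the other way, with 1.17, 1.07 and 1.1 CPM in NanogKO:Esrrb, 0.871, 0.499 and 0.795 CPM in NanogKO:Esrrb:Nanog, and 1.07, 1.63 and 1.62 CPM in NanogKO (-0.98, adjusted p = 0.0035). One more of 19 bp, 25379 bp away (chr12:86547007-86547025), was higher in NanogKO:Esrrb:Nanog than in NanogKO by 1.45 (adjusted p = 0.024). Both lie beyond the distance that named regions and were picked after their values were seen. Reads from supplied Esrrb sequence were not told apart from those of the gene's own locus, and these levels rest on few counts.

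At 12 ERK feedback genes, which FGF signalling switches on and which restrain it, 24 of 260 regions were Esrrb-list-only. By number of regions, again picked after values were seen, Dusp4, a phosphatase of ERK, had 5, Spred2, an inhibitor of RAS signalling, 4, Etv4, an ETS factor, 4, and Spry4 3. In NanogKO:Esrrb:Nanog 8 were higher than in NanogKO and 0 lower, with a median of 0.507, against 0.254 for all 260 regions. Of those 260, 100 were higher and 39 lower. At WNT targets, 8 of 18 were higher and 2 lower, with a median of 0.585 against 0.0621 for all 310 regions of the list. Of those 310, 91 were higher and 65 lower. Nuclear receptors and their cofactors, the family of ESRRB, had 49 of 542 regions, of which 14 were higher and 3 lower, with a median of 0.226 against 0.105. Of all 542, 180 were higher and 96 lower.

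The most accessible Esrrb-list-only region at the WNT targets (chr11:87756856-87757393) lay 21317 bp from the WNT receptor ligase gene Rnf43 and 801 bp outside Tspoap1. It covers the hairpin of miR-142, a microRNA of blood cells. It had 4.51, 4.49 and 3.67 CPM in NanogKO:Esrrb, 3.32, 3.84 and 3.46 CPM in NanogKO:Esrrb:Nanog, and 1.61, 1.73 and 1.66 CPM in NanogKO. All 6 libraries with Esrrb lay above the NanogKO libraries, and NanogKO:Esrrb:Nanog was higher by 1.08 ± 0.18 (adjusted p = 1.9e-05). The mature strands encoded under the region, from RefSeq, are shown with the seed (bases 2 to 8) in capitals, since 3 different seeds lie in this 1 region.
mmu-miR-142a-5p: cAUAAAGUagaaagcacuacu
mmu-miR-142a-3p: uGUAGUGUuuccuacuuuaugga
mmu-miR-142b: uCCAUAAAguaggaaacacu
ATAC-seq measures the DNA and not the microRNA, whose level is not known from these data. Other hairpins that Esrrb-list-only regions overlapped, looked up after values were seen, were those of Mir6944, Mir3074-1 and Mir7029. That of Mir6944 was covered whole, that of Mir7029 in part and that of Mir3074-1 only at its edge. The regions did not pass the test between NanogKO:Esrrb:Nanog and NanogKO (adjusted p = 0.54, 0.96 and 0.80 for Mir6944, Mir3074-1 and Mir7029).

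In the general pluripotency list, 11 of 253 regions were Esrrb-list-only, with 4 higher and 3 lower in NanogKO:Esrrb:Nanog and a median of -0.01. Among all 253 regions of the list, 81 were higher and 44 lower. Its most accessible member lay in Lrrc2 beside Tdgf1, a NODAL co-receptor (chr9:110953038-110953181), with 4.55, 4.20 and 3.34 CPM in NanogKO:Esrrb, 4.6, 4.20 and 4.25 CPM in NanogKO:Esrrb:Nanog, and 1.32, 1.6 and 1.89 CPM in NanogKO. The groups with Esrrb overlapped, and both lay above NanogKO (1.44 ± 0.19, adjusted p = 5.2e-07). In the formative and primed list, 7 of 273 regions were Esrrb-list-only, with 1 higher and 0 lower in NanogKO:Esrrb:Nanog and a median of -0.147. Among all 273 regions of that list, 73 were higher and 68 lower. The 1 called higher lay near Foxd3, a forkhead factor (chr4:99614890-99615185). Its levels were 2.40, 2.13 and 2.35 CPM in NanogKO:Esrrb, 1.68, 1.29 and 1.28 CPM in NanogKO:Esrrb:Nanog, and 0.610, 0.790 and 1.09 CPM in NanogKO (0.76 ± 0.25, 0.014). That call was lost without NanogKO:Esrrb:Nanog replicate 1 or NanogKO replicate 1, with a range over alternatives of 0.0052 to 0.078.

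Among LIF and STAT3 targets, 23 of 271 regions were Esrrb-list-only, with 5 higher, 1 lower and a median of 0.221 in NanogKO:Esrrb:Nanog. Of all 271, 118 were higher and 18 lower than in NanogKO. The member beside Junb, an AP-1 factor (chr8:84955945-84956229, in Rtbdn), had 2.50, 2.96 and 2.94 CPM in NanogKO:Esrrb, 2.47, 4.11 and 3.6 CPM in NanogKO:Esrrb:Nanog, and 2.00, 2.42 and 2.60 CPM in NanogKO. The groups overlapped, and the rise of 0.52 ± 0.20 (adjusted p = 0.033) was lost under 5 of 15 alternatives (0.0059 to 0.16), among them library totals alone and leaving out NanogKO:Esrrb:Nanog replicate 2 or 3 or NanogKO replicate 1 or 2.

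At lineage genes, calls went in both directions. In NanogKO:Esrrb:Nanog over NanogKO, 4 of 17 at primitive endoderm genes were higher and 3 lower, 0 of 10 at mesendoderm genes higher and 1 lower, 3 of 11 at neural genes higher and 2 lower, and 1 of 9 at trophoblast genes higher and 1 lower. At housekeeping genes, 5 of 21 were higher and 2 lower, with a median of -0.055. Among all regions of these lists, 53 of 183 were higher and 36 lower at primitive endoderm genes, and 23 of 153 higher and 32 lower at mesendoderm genes. For neural genes, 40 of 173 were higher and 44 lower, and for trophoblast genes 57 of 237 and 49. At housekeeping genes, 60 of all 267 were higher and 50 lower. The most accessible members of the lineage lists mostly overlapped between groups. At Gata6, the driver of primitive endoderm (chr18:11051444-11051691), levels were 4.57, 3.43 and 4.4 CPM in NanogKO:Esrrb, 3.34, 3.90 and 4.13 CPM in NanogKO:Esrrb:Nanog, and 4.24, 3.66 and 3.65 CPM in NanogKO (-0.02 ± 0.17, adjusted p = 0.94).

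At Nodal, a TGF-beta ligand of mesendoderm (chr10:61426108-61426323), levels were 2.07, 1.54 and 2.38 CPM in NanogKO:Esrrb, 1.45, 1.17 and 2.40 CPM in NanogKO:Esrrb:Nanog, and 2.19, 1.87 and 2.49 CPM in NanogKO. In Meis2, a neural homeobox factor (chr2:116061592-116061792), they were 3.12, 2.26 and 2.89 CPM in NanogKO:Esrrb, 3.42, 2.93 and 2.18 CPM in NanogKO:Esrrb:Nanog, and 3.12, 3.33 and 3.18 CPM in NanogKO. In both, as in Gata6, a peak was listed for NanogKO:Esrrb alone although the counts of the 3 groups overlapped. The region at Nodal lay 253 bp from one peaked in the NanogKO list alone. Those in Meis2 and at Gata6 lay 536 and 618 bp from regions peaked in all 3 lists. The test between NanogKO:Esrrb:Nanog and NanogKO gave adjusted p = 0.24 at Nodal, 0.46 in Meis2, 0.12 in Gata3, a trophoblast factor (chr2:9872599-9872865), and 0.72 in Nr2c1, an orphan receptor (chr10:94161204-94161505).

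**Figure D5:**
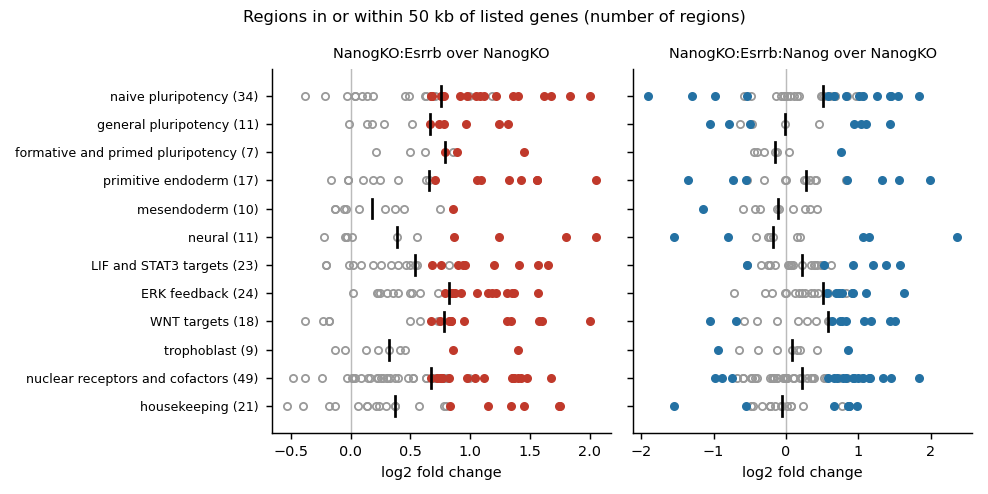
Log2 fold changes of the Esrrb-list-only regions in or within 50 kb of the genes of 12 lists, for NanogKO:Esrrb over NanogKO (left, the contrast the rule used) and NanogKO:Esrrb:Nanog over NanogKO (right), with filled points called at an adjusted p under 0.05 and a bar at each median. On the right, ERK feedback has 8 filled points, all above 0, and the naive list has 10 above and 4 below. In that comparison, 24.9% of all tested regions were higher and 24.4% lower.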

How the data were processed

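The authors deposited 1 table of unnormalized whole-number read counts for every region and 3 lists of peak intervals, each with the peak caller's score. The score is the authors' own value and was used only to describe peaks. The submitters' processing notes give mm10, the build of all coordinates, and list MACS2 2.2.0, Bowtie2, bedtools 2.26.0, cutadapt, deepTools 4.4.0, bcl2fastq 2.19.1 and SAMtools 1.4.1. The counting tool, any read shift for the transposase and any duplicate removal are not given in the sources used here, and each could change levels.

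Overlaps were found with bedtools 2.31.1. Counts of all 9 libraries entered 1 edgeR 4.0.16 fit (R 4.3.3) with TMM factors, and 157439 regions passing filterByExpr, 13545 of them Esrrb-list-only, were tested by the quasi-likelihood test with 6 residual degrees of freedom. The 38 that did not pass had a median length of 10 bp. Adjusted p values are Benjamini-Hochberg over all tested regions, with calls under 0.05, and ± after a log2 fold change is its SE. The fit was run on simulated data with the same spread in every region and changes planted only in regions above a minimum mean count. This does not give its error rates in the Esrrb-list-only regions. Genes are RefSeq protein-coding genes of GRCm38.p6, where "near" means outside and "in" inside the gene, exons and introns not told apart. Sequences are RefSeq promoter windows (chromosome 18 not used) and microRNAs. Intervals cover counting error only.

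Regions were named by rule: the 6 highest by mean CPM and by score, the most accessible at each list, all within 10 kb of Esrrb or Nanog, the 5 largest rises and falls, those of lowest score, and those that missed the overlap rule by the fewest bp. The regions, lists and rules were chosen with earlier results of these data known. Libraries of the same replicate number deviated together over all regions between NanogKO:Esrrb and NanogKO (correlations 0.117 to 0.152) and between NanogKO:Esrrb and NanogKO:Esrrb:Nanog (0.105 to 0.146). Between NanogKO:Esrrb:Nanog and NanogKO only replicate 1 did so (0.136), and replicates 2 and 3 had 0.0022 and 0.0388. This pairing comes from the data, not the labels. No libraries of a group were copies (chi-square per region 3.55 to 9.49). Alternatives were other scalings, DESeq2 1.42.0, no filter, the 2 groups alone, a replicate block, each library left out, and stricter overlap, score and length.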

Additional observations from a re-analysis of the deposited data

How the results depend on the processing

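Over the 15 alternative fits, Esrrb-list-only regions higher in NanogKO:Esrrb than in NanogKO numbered 3434 to 5240 with a library left out, against 16.3 to 21.5% of all tested regions. Otherwise they numbered 4154 to 5600, against 19.5 to 22.3% of all. With a replicate block they numbered 5019, those higher in NanogKO:Esrrb than in NanogKO:Esrrb:Nanog 4062, and those higher and lower in NanogKO:Esrrb:Nanog than in NanogKO 2046 and 1509, so the block moved no count of calls by over 1.5 times. With the block, 21.5%, 14.1%, 26.4% and 26.0% of all tested regions were called in the same order. With libraries left out, the regions lower in NanogKO:Esrrb than in NanogKO were 18 to 48 with medians of 0.488 to 0.587, and against NanogKO:Esrrb:Nanog 1915 to 5076 were higher and 5 to 43 lower, with medians of 0.417 to 0.667. NanogKO:Esrrb:Nanog over NanogKO then gave 1391 to 2133 higher, 854 to 2099 lower and medians of -0.142 to 0.119. Library totals alone left 7 regions lower in NanogKO:Esrrb than in NanogKO:Esrrb:Nanog, against 8.1% of all tested regions. The median was 0.608, in a scaling that shifted the median of all regions to 0.112. Where an overlap with another list counted only from 50% of the region, 24273 regions met the rule. A 50% cover by the NanogKO:Esrrb interval left all 13583. It could remove none, since each of these regions had the same start and end as an interval of that list. The minimum score of 20 left 13488.

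Of 44 single fold changes, 31 called, 14 changed a call or direction under some fit. Directions of uncalled values reversed only with libraries left out, over which the region near Usp46 (chr5:74094838-74095286) ran from -0.352 to 0.033, that at Gata6 from -0.09 to 0.067, that in Nr2c1 from -0.364 to 0.138 and that at Gm20619 from -0.474 to 0.178. Their sign turned without NanogKO:Esrrb:Nanog replicate 1, at Gata6 also without NanogKO replicate 1 (0.054), in Nr2c1 without NanogKO replicate 2 (0.049), and at Gm20619 without NanogKO replicate 2 or 3 (0.097 and 0.101). The cause was not tested. Chosen after seeing the data, leaving out the regions whose peak stands in the other list elsewhere, or those under 50 bp, kept every count within 1.5 times, and windows sharing 100 bp or more held the core in 7.69%. The central 300 bp of each region were not searched for motifs. A median count of 24 to 64 per library and region limits what small differences can pass the test.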

Other observations

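Some genes held many Esrrb-list-only regions, and these genes were picked after the counts per gene were seen. For NanogKO:Esrrb:Nanog against NanogKO, calls upward made up 14.4% of Esrrb-list-only regions and 24.9% of everything tested, and calls downward 10.4% and 24.4%. In or nearest to Msi2, an RNA-binding protein of stem and progenitor cells, 17 of 113 regions were Esrrb-list-only. Summed over the 17, levels were 21.3, 25 and 21.8 CPM in NanogKO:Esrrb, 18.1, 21.4 and 26.7 CPM in NanogKO:Esrrb:Nanog, and 11.9, 12.8 and 13.4 CPM in NanogKO. Both groups with Esrrb lay above NanogKO, and 9 of the 17 were higher and 0 lower in NanogKO:Esrrb:Nanog than in NanogKO by edgeR's test, with a median log2 fold change of 0.729. At Gse1, which had the next most with 15 of 105, summed levels were 23.5, 25.6 and 22.4 CPM in NanogKO:Esrrb, 17.4, 18.7 and 20.6 CPM in NanogKO:Esrrb:Nanog, and 13.5, 13.6 and 16.4 CPM in NanogKO, and 2 of the 15 were higher and 0 lower in NanogKO:Esrrb:Nanog than in NanogKO, with a median of 0.324.

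At Pde4d, a phosphodiesterase that breaks down cyclic AMP, 12 of 85 regions were Esrrb-list-only, and their summed levels were 13.6, 11.9 and 15.1 CPM in NanogKO:Esrrb, 5.66, 6.98 and 9.39 CPM in NanogKO:Esrrb:Nanog, and 10.4, 11.1 and 10.8 CPM in NanogKO. Here NanogKO:Esrrb:Nanog was the lowest group, with 0 of the 12 higher and 6 lower than in NanogKO and a median of -0.683. At Zfp462, a zinc finger factor of stem cell chromatin, 12 of 51 regions (23.5%) were Esrrb-list-only, with summed levels of 14.7, 15.7 and 14.5 CPM in NanogKO:Esrrb, 8.21, 10.5 and 11.8 CPM in NanogKO:Esrrb:Nanog, and 6.10, 8.12 and 6.83 CPM in NanogKO. All 6 libraries with Esrrb lay above NanogKO, and 3 of the 11 tested were higher and 0 lower in NanogKO:Esrrb:Nanog than in NanogKO. Regions of 1 gene are not independent, and the difference between these genes was not tested. On chromosome Y, 3 further regions met the peak criteria but fell outside the rule's chromosomes.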
